A study of Mus musculus with 8 samples.

Results

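The GABA-A receptor alpha and beta subunits described here are 6 genes, Gabra2, Gabra3, Gabra4, Gabra5, Gabrb1 and Gabrb2, taken by symbol from a table of 56576 genes. They comprise 4 alpha and 2 beta subunits, and other alpha and beta subunits were not analysed here, so every share below is a share of these 6. All 6 passed the filter on low values, which asked for a genotype mean of 10 normalized counts or more and left 31171 genes to test.

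GABA-A receptors are chloride channels built from several subunits around a central pore, and they carry most fast inhibition in the cerebral cortex. Neurotransmitter binds at the interface between an alpha and a beta subunit, while benzodiazepines bind between an alpha and a gamma subunit. The alpha subunit largely sets where a receptor sits and which drugs act on it, with alpha2 and alpha3 often found at synapses and alpha4 and alpha5 largely outside them. Interneurons carry these receptors on their own surface, so they are inhibited as well as inhibiting.

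RNA attached to tagged ribosomes was sequenced from neocortical synaptosomes, pinched-off nerve endings with adhering postsynaptic membrane, of mice at postnatal day 15. Controls were Lhx6-Cre;ErbB4+/+;Rpl22HA/HA and mutants were Lhx6-Cre;ErbB4F/F;Rpl22HA/HA, with 4 libraries each. Both genotypes therefore carried the Cre driver and the tagged ribosomal protein, and they differed in whether the receptor tyrosine kinase gene Erbb4 was floxed. The Lhx6 driver marks cortical interneurons that arise in the preoptic area or the medial ganglionic eminence (MGE), among them parvalbumin (PV+) and somatostatin (SST+) cells, so it does not single out 1 of these classes. Control replicates are numbered 1, 3, 4 and 5 and mutant replicates 2, 3, 4 and 5. Reads counted on genes ran from 51010687 to 80226984 per library, and the lowest count behind any value of the 6 subunits was 1262 reads, for Gabra3 in mutant replicate 5. A normalized count is the reads on a gene divided by 1 size factor per library.

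Erbb4 was examined first, since it checks the labels. Its normalized counts were 1640, 5377, 4306 and 3034 in the libraries labelled control replicates 1, 3, 4 and 5, and 1711, 1648, 1233 and 1048 in mutant replicates 2, 3, 4 and 5. The library labelled control replicate 1 lay below mutant replicates 2 and 3, so the genotypes overlapped through that library alone, which lay within the range of the mutants. Whether it is mislabelled was not tested. The count covers regions shared by the gene's transcripts and not only the floxed part, so reads in mutants do not measure intact transcript. The log2 fold change of Erbb4 was -1.25 with all 8 libraries and -1.58 without the library labelled control replicate 1, and Erbb4 was called lower both ways. Values below include the library labelled control replicate 1 unless stated.

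Gabra2, Gabra3 and Gabra4 are not alike at a codon that is known to decide drug sensitivity, which is why these 3 stretches are shown. Each line gives 39 coding bases of the GENCODE transcript, 5′ to 3′ on the coding strand, with capitals marking the codon at the benzodiazepine site. A histidine codon there is known to accompany sensitivity to diazepam, and the arginine codon of Gabra4 insensitivity.
Gabra2: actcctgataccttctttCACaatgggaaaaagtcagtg
Gabra3: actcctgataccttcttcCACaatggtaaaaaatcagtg
Gabra4: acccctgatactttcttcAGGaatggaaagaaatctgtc
In mm10 the codon lies at chr5:71014505-71014507 in exon 5 of Gabra2, chrX:72501168-72501170 in exon 5 of Gabra3 and chr5:71641152-71641154 in exon 4 of Gabra4, all on the minus strand.

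The beta subunits differ at a codon of the second membrane segment, which lines the pore. A serine codon there, as in beta1, is known to accompany low sensitivity to the anaesthetic etomidate, and an asparagine codon, as in beta2, high sensitivity. Capitals mark that codon.
Gabrb1: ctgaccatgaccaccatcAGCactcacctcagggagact
Gabrb2: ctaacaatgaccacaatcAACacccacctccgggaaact
It lies at chr5:72121981-72121983 in exon 8 of Gabrb1 and at chr11:42597573-42597575 in exon 9 of Gabrb2, both on the plus strand, and 32 of the 39 bases were identical.

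The 6 genes lie on 4 chromosomes of mm10. Gabra2 (GSMG0030599, chr5:70958392-71095850), Gabra4 (GSMG0030602, chr5:71569730-71658309) and Gabrb1 (GSMG0071552, chr5:71657921-72149572) lie close together on chromosome 5. Gabra5 (GSMG0035996) spans chr7:57407669-57510061, Gabrb2 (GSMG0005055) chr11:42419707-42632591 and Gabra3 (GSMG0042578) chrX:72432676-72656919. Gabra4 and Gabrb1 are transcribed away from each other, and their spans in the table overlap by 389 bases. The stretch below, chr5:71657777-71657839 on the plus strand, comes from the RefSeq window (GRCm38.p6) of 250 bases before to 50 after a start of Gabrb1, and its capitals mark the Gabra4 start codon read on the opposite strand.
Gabrb1 window: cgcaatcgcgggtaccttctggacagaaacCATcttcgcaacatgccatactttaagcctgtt
It is shown because it places the start codon of Gabra4 before the start of Gabrb1, and it ends before the bases that the spans share. The libraries do not mark strand, so reads from those shared bases cannot be assigned to either gene. Exons of the 2 genes share 46 bases in GENCODE, of 6083 exon bases in Gabra4 and 13838 in Gabrb1. Gabra5 likewise shares 148 of 2974 exon bases with Gm9962 on the opposite strand.

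In control libraries, the order of the 6 subunits was set by their level per kb of the longest protein-coding transcript. Gabra5 came first, at 1796 ± 482 normalized counts per kb (SD, n = 4), followed by Gabrb2 at 1297 ± 459 (SD, n = 4) and Gabra3 at 1170 ± 606 (SD, n = 4). Gabra4 stood at 1014 ± 195 (SD, n = 4), Gabrb1 at 841 ± 203 (SD, n = 4) and Gabra2 at 651 ± 92.2 (SD, n = 4). Gabra5 and Gabrb2 differed in level per kb of transcript by slightly more than the SD of either. Every other neighbouring pair in that order differed by less than the larger of its SDs and was not resolved. Gabra5 had the highest level per kb in 3 of 4 controls and 4 of 4 mutants, and Gabrb2 was highest in the remaining one, control replicate 3. The place of Gabrb1 depends on the length used, because its longest transcript has 13737 bases and its longest coding sequence 1422. Per kb of coding length, its control level of 8120 ± 1965 (SD, n = 4) was above that of Gabra5, 3454 ± 926 (SD, n = 4). On that length Gabrb2 stood at 3368 ± 1192 (SD, n = 4), closer to Gabra5 than the SD of either, so that pair was not resolved. Gabra2, last per kb of transcript, then stood at 2817 ± 399 (SD, n = 4), above Gabra3 at 2679 ± 1388 (SD, n = 4). Gabra4 was then the lowest, at 2401 ± 463 (SD, n = 4), and these places were not resolved either. The regions on which reads were counted have neither length.

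Of the 6 subunits, 1 was called between genotypes, where a call needed an unadjusted limma p no higher than 0.05 together with a 1.5-fold change. That gene was Gabrb2, lower in mutants, while 3.17% of all tested genes were called lower and 7.15% in either direction. At an adjusted p under 0.05 from limma with Benjamini-Hochberg adjustment, 0 of 6 passed, against 0.0449% of all genes, and 2 of 6, Gabra5 and Gabrb2, had an unadjusted limma p under 0.05, against 8.33% of all genes. The count tests of edgeR and DESeq2 also gave 0 of 6 at that adjusted p. The genotypes did not overlap for 1 of 6, Gabra5, lower in mutants, against 2.17% of tested genes. Log2 fold changes of mutants against controls, on the log2(normalized count + 1) scale, were below 0 for 6 of 6 subunits and for 46.6% of tested genes, with medians of -0.42 for the 6 and 0.06 for all tested genes. At each of the 3 replicate numbers found in both genotypes, 6 of 6 were lower in the mutant, as were 18.1% of tested genes. Without the library labelled control replicate 1, 6 of 6 were still below 0, from -0.83 for Gabrb2 to -0.19 for Gabra2, and Gabrb2 was again the 1 gene called. In bulk libraries, fewer cells of a type and less RNA per cell cannot be told apart.

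**Figure D1:**
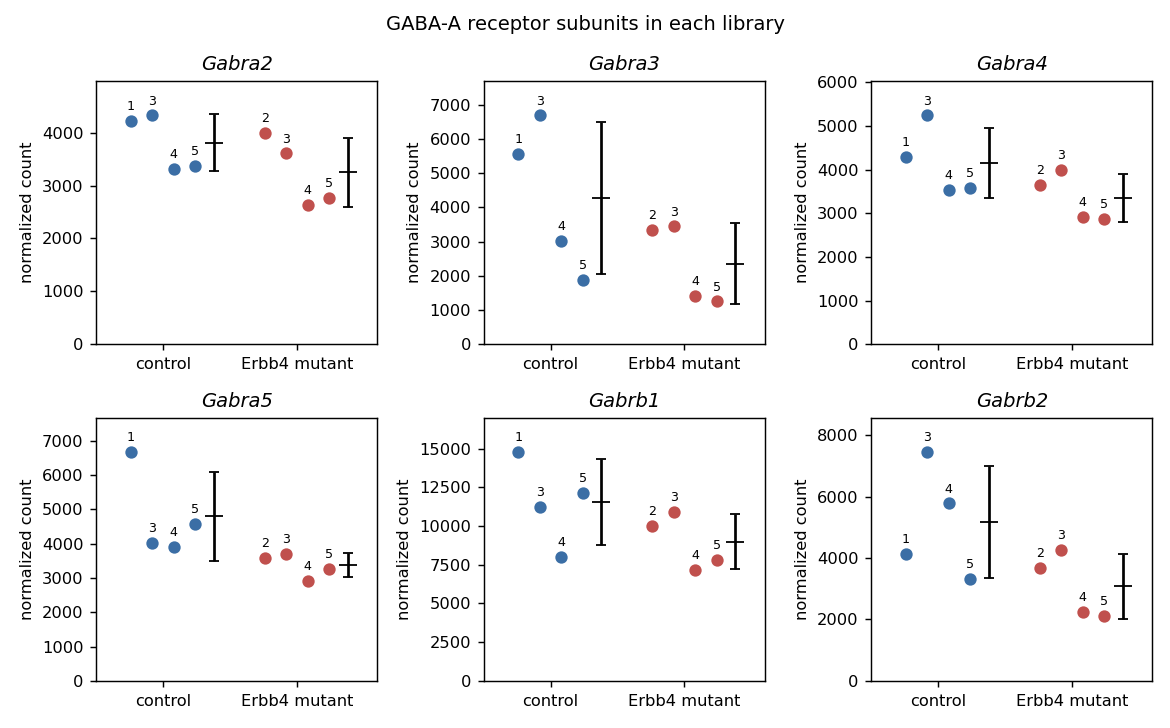
Normalized count (vertical axis, starting at 0) of each of the 6 subunits in 4 control (blue) and 4 Erbb4 mutant (red) libraries, each point a library marked with its replicate number and each bar the mean ± SD. Gabra5 is the panel in which every mutant point lies below every control point; Gabra3 and Gabrb2 have the largest ratio of highest to lowest count within each genotype.

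Gabra2, a synaptic alpha subunit, had 4225, 4329, 3318 and 3374 normalized counts in control replicates 1, 3, 4 and 5 and 3993, 3609, 2639 and 2761 in mutant replicates 2, 3, 4 and 5. Mutant replicates 2 and 3 lay among the controls, and mutant replicates 4 and 5 lay below all of them. Mutants stood at -0.24 against controls on the log2 scale (standard error 0.20), with an adjusted limma p of 0.69, and at -0.15 without mutant replicate 4. The highest control was 1.30 times the lowest, the narrowest spread of the 6 genes in controls.

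Gabra3, the X-linked alpha subunit, had 5557, 6686, 3011 and 1882 normalized counts in control replicates 1, 3, 4 and 5. The mutants, replicates 2, 3, 4 and 5, had 3334, 3443, 1402 and 1252. Control replicates 1 and 3 were above every mutant, while control replicates 4 and 5 were below mutant replicates 2 and 3. The spread within controls, 3.55 times from lowest to highest, was wider than for any other of the 6. Its log2 fold change, -0.85 (standard error 0.45), was the lowest of the 6, but the adjusted p from limma was 0.58 and the unadjusted p 0.089, so it was not called. With the replicate number as a block, which leaves its 3 shared numbers to decide the difference and gives no weight to the library labelled control replicate 1 or to mutant replicate 2, the log2 fold change was -0.88 with an unadjusted limma p of 0.0018 and an adjusted p of 0.12, and Gabra3 was called lower. The labels do not say what a number marks, and some differently numbered libraries varied together about as much as same-numbered ones. Gabra3 was also called without control replicate 5 (log2 fold change -1.19) or without mutant replicate 3 (-1.08). Within replicate numbers 3, 4 and 5 the log2 differences were -0.96, -1.10 and -0.59.

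Gabra4, which can assemble with the delta subunit in receptors outside synapses, had 4297, 5246, 3528 and 3584 normalized counts in control replicates 1, 3, 4 and 5. Mutant replicates 2, 3, 4 and 5 had 3647, 3987, 2916 and 2864. Mutant replicates 2 and 3 fell within the control range and the other 2 below it. On the log2 scale the difference was -0.31 (standard error 0.20), with an adjusted limma p of 0.62, and it was -0.19 without control replicate 3.

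Gabra5, the alpha subunit known for tonic inhibition, had 6675, 4024, 3906 and 4584 normalized counts in control replicates 1, 3, 4 and 5. Mutant replicates 2, 3, 4 and 5 had 3578, 3712, 2926 and 3269. All 4 mutants lay below all 4 controls, the nearest values being 3712 and 3906, and the library labelled control replicate 1 stood well above the other controls. The log2 fold change of -0.48 (standard error 0.21) is less than the 1.5-fold needed for a call, with an unadjusted limma p of 0.044 and an adjusted p of 0.58. Without the library labelled control replicate 1 it was -0.31, with an unadjusted limma p of 0.10.

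Gabrb1, a beta subunit, had 14781, 11246, 8009 and 12149 normalized counts in control replicates 1, 3, 4 and 5. Mutant replicates 2, 3, 4 and 5 had 10025, 10925, 7147 and 7829. Control replicate 4 lay below mutant replicates 2 and 3, and the other controls lay above every mutant. Its log2 difference between genotypes, -0.35 (standard error 0.23), had an adjusted limma p of 0.62, and it was -0.22 without the library labelled control replicate 1.

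Gabrb2, the beta subunit with the asparagine codon shown above, had 4146, 7451, 5777 and 3316 normalized counts in control replicates 1, 3, 4 and 5. Mutant replicates 2, 3, 4 and 5 had 3681, 4276, 2260 and 2114. Control replicates 3 and 4 were above every mutant, whereas the library labelled control replicate 1 was below mutant replicate 3 and control replicate 5 below mutant replicates 2 and 3. Controls averaged 5172 ± 1831 normalized counts (SD, n = 4), and the mutant mean was 3083 ± 1064 (SD, n = 4). The log2 fold change was -0.74 (standard error 0.31; 95% confidence interval -1.43 to -0.06), with an unadjusted limma p of 0.035 and an adjusted p of 0.58. The call was lost without control replicate 3 (log2 fold change -0.55), control replicate 4 (-0.67), mutant replicate 4 (-0.62) or mutant replicate 5 (-0.58), and under limma without trend.

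Summed per kb over the 6 subunits, the libraries labelled control replicates 1, 3, 4 and 5 had 7900, 8036, 5742 and 5395 normalized counts per kb. Per kb, mutant replicates 2, 3, 4 and 5 had 5473, 5784, 3726 and 3834. Mutant replicate 3 lay above control replicates 4 and 5, and mutant replicate 2 above control replicate 5, so the genotypes overlapped. Controls averaged 6768 ± 1394 per kb (SD, n = 4), and mutants averaged 4704 ± 1076 (SD, n = 4).

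Shares of that sum do not depend on the size factor of a library. In controls the 4 alpha subunits together held 68.2% ± 3.68 (SD, n = 4), and in mutants 69.9% ± 1.6 (SD, n = 4), which is closer than the SD of controls. Within each of replicate numbers 3, 4 and 5 the alpha share was higher in the mutant. The replicate block put that difference at 3.49 percentage points, also less than the SD of controls. The share itself depends on the length, at 50.2% in controls and 50.6% in mutants with no division by length, and at 49.4 and 49.8% per kb of coding length. Gabra3 held 19.2, 22.7, 14.3 and 9.53% in control replicates 1, 3, 4 and 5 and 16.6, 16.3, 10.3 and 8.92% in mutant replicates 2, 3, 4 and 5. Its share thus differed more between libraries of 1 genotype than between the genotype means, 16.4 and 13.0%. The control share of Gabrb2 was 19.3% ± 5.88 (SD, n = 4) and its mutant share 16.1% ± 2.04 (SD, n = 4), with overlap. Gabra5 held 26.9% ± 6.19 (SD, n = 4) and 27.5% ± 3.84 (SD, n = 4), the largest mean share in both genotypes per kb of transcript, and Gabrb1 12.6% ± 3.01 (SD, n = 4) and 14.0% ± 0.65 (SD, n = 4). Gabrb1 instead had the largest mean share with no division by length, 34.3% in controls and 37.0% in mutants, and per kb of coding length, 35.6 and 38.3%. Gabra2 held 9.73% ± 0.72 (SD, n = 4) and 11.9% ± 0.83 (SD, n = 4), with mutant replicate 3 at 10.66% just below control replicate 5 at 10.69%. Gabra4 was the 1 subunit of 6 whose shares did not overlap, at 13.2 to 16.2% in controls and 16.2 to 19.1% in mutants, the nearest values being 16.17 and 16.22%. That separation depends on the length, since the Gabra4 shares overlapped with no division by length and per kb of coding length, while those of Gabra2 did not overlap with no division by length.

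**Figure D2:**
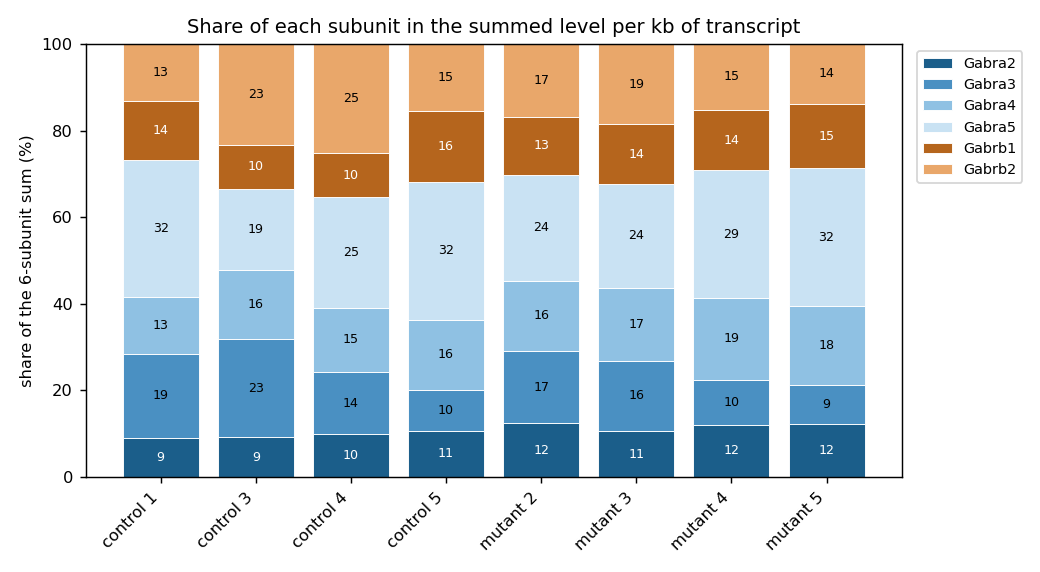
Share (%) of each of the 6 subunits in their summed level per kb of transcript, 1 stacked bar per library from 0 to 100, alpha subunits in blue and beta subunits in brown. The Gabra3 band runs from 8.92 to 22.7% over the 8 libraries and the Gabra2 band from 9.14 to 12.5%.

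The subunits also differed in how they varied from library to library. Likeness was measured as the root mean square difference of centred log2 profiles over the 8 libraries, where 0 means identical profiles. Gabra2 and Gabra4 were nearest to each other among the 6, at 0.11, and Gabra3 and Gabra5 farthest apart, at 0.67. Gabra3 had Gabrb2 as its nearest subunit, at 0.43, while Gabra5 had Gabrb1, at 0.17. Among 13756 other genes averaging 100 normalized counts or more, those nearest to the mean profile of the 6 were Adam23 (0.06), Smpd1 (0.07), P4ha1 (0.08), Mapt (0.08) and Chpf (0.08). The gene nearest to each subunit was Pdxp for Gabra2 (0.09), Tmub1 for Gabra3 (0.06), Tubb5 for Gabra4 (0.07), Dusp14 for Gabra5 (0.08), Tst for Gabrb1 (0.07) and Syt13 for Gabrb2 (0.09).

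Markers of the tagged interneurons varied in the same libraries. Of 12 MGE markers, 12 had log2 fold changes below 0, with a median of -0.79, and 2, Gad1 and Gad2, were called lower, while edgeR called 4 and DESeq2 5. Their summed normalized counts were 75376, 125764, 66391 and 35207 in control replicates 1, 3, 4 and 5 and 57521, 60519, 24607 and 19239 in mutant replicates 2, 3, 4 and 5. As with Gabra3, control replicate 3 was highest and mutant replicates 4 and 5 were lowest. Lhx6, the transcription factor that defines the panel, had 1130, 1781, 1280 and 701 in those controls and 899, 964, 577 and 532 in those mutants. Its log2 fold change of -0.69 was not called, but it was called lower with the replicate block (-0.81), from DESeq2 (-0.70) and without control replicate 5 (-0.93), mutant replicate 2 (-0.80) or mutant replicate 3 (-0.83). Nxph1 had the highest counts of the 12. The part of these markers in the subunit differences was not tested.

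Gad1, a GABA-synthesizing enzyme, had 5482, 8135, 4342 and 1720 normalized counts in control replicates 1, 3, 4 and 5. Mutant replicates 2, 3, 4 and 5 had 3465, 2751, 1719 and 1130. Control replicate 5 lay within the range of the mutants, and the other controls lay above every mutant. The call of Gad1, at a log2 fold change of -1.04, was lost without any 1 of 5 libraries: the library labelled control replicate 1 (-0.92), control replicates 3 (-0.73) and 4 (-1.03), and mutant replicates 4 (-0.95) and 5 (-0.75). The call of Gad2, the other such enzyme, at -0.93, was lost without the same libraries in turn (-0.97, -0.62, -0.86, -0.81 and -0.68).

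Of 6 markers of PV+ interneurons, 6 were below 0, and 4 were called lower, Pvalb, Syt2, Kcnc1 and Pthlh, which are named here because of their calls, while edgeR called 4 and DESeq2 6. Their summed counts were 52044, 91346, 33965 and 18076 in control replicates 1, 3, 4 and 5 and 27068, 30056, 10800 and 8888 in mutant replicates 2, 3, 4 and 5, again lowest in mutant replicates 4 and 5. Pvalb, the defining marker, had 3219, 5896, 1675 and 730 in those controls and 1188, 1439, 269 and 159 in those mutants, and Tac1 had the highest counts. The call of Pvalb, at a log2 fold change of -2.08, was lost without the library labelled control replicate 1 (-1.89), control replicate 3 (-1.60), mutant replicate 4 (-1.76) or mutant replicate 5 (-1.51). That of Syt2, at -1.10, was lost without control replicate 3 (-0.87), control replicate 4 (-1.0), mutant replicate 4 (-0.88) or mutant replicate 5 (-0.79). Kcnc1 and Pthlh were called whichever library was left out.

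Of 7 markers of SST+ interneurons, 6 were below 0 and 1, Chodl, was called lower. Their sums were 271835, 497007, 142151 and 56900 in control replicates 1, 3, 4 and 5 and 199190, 190427, 47843 and 17727 in mutant replicates 2, 3, 4 and 5. Sst, both the defining marker and the one of highest count, was at a log2 fold change of -1.50 without a call, and was called lower with the replicate block (-1.88). Without control replicate 3 it was at -0.96 and without mutant replicate 5 at -0.56, neither called. The call of Chodl, at -1.32, was lost without the library labelled control replicate 1 (-1.19), control replicates 3 (-1.0) or 4 (-1.32), or mutant replicates 4 (-1.01) or 5 (-1.13). Interneurons of the caudal ganglionic eminence, which Lhx6-Cre does not target, were represented by 8 markers. Of these, 6 were below 0 and limma called 0, with 0 at an unadjusted p under 0.05, while edgeR called 1, Vip, and DESeq2 called 2, Vip and Lamp5. Their sums were 29753, 30664, 20201 and 17680 in controls and 17221, 18244, 14803 and 15605 in mutants. Cnr1 had the highest counts, and Vip, the defining marker, was at a log2 fold change of -0.60 in limma. Vip was called lower without control replicate 4 (-0.82), but was at -0.33 without the library labelled control replicate 1 and at -0.23 with the replicate block and with library weights, with no call. Lamp5, at -0.60 in limma, was called lower without control replicates 4 (-0.77) or 5 (-0.75), and was at -0.26 without the library labelled control replicate 1 and -0.21 with the block.

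RNA of cells outside the Cre lineage was also present, and none of the defining markers of any panel was at 0 in any library. Excitatory neurons, which also carry GABA-A receptors, were represented by Slc17a7, the defining marker with the highest counts. It had 92440, 121394, 100411 and 122229 normalized counts in control replicates 1, 3, 4 and 5 and 87106, 101436, 95297 and 109409 in mutant replicates 2, 3, 4 and 5, with overlap. Of the 10 excitatory markers, 7 were below 0, and limma called 1 lower, Neurod6, and 1 higher, while edgeR and DESeq2 each called 3. The call of Neurod6, at a log2 fold change of -0.70, was lost with the replicate block (-0.62) and without control replicate 3 (-0.57). The excitatory sums were 154036, 175066, 139148 and 169707 in controls and 123663, 136047, 133464 and 151781 in mutants, closer to each other than the interneuron sums.

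Of 10 oligodendrocyte markers, 10 were below 0 and 3, Mog, Mag and Opalin, were called lower, while edgeR called 5 and DESeq2 6. The sums were 673772, 362807, 229955 and 324754 in control replicates 1, 3, 4 and 5 and 232813, 202878, 253660 and 287269 in mutant replicates 2, 3, 4 and 5. The library labelled control replicate 1 was the highest, as it was for Gabra5 and Gabrb1. Mog defines the panel and Mbp had its highest counts. With the replicate block, Mog (-0.44), Mag (-0.44) and Opalin (-0.46) were not called. Without the library labelled control replicate 1 they were at log2 fold changes of -0.50, -0.47 and -0.50, also without a call. The call of Mog, at -0.73, was lost as well without control replicate 3 (-0.59) or mutant replicates 2 (-0.67), 4 (-0.68) or 5 (-0.78). That of Mag, at -0.66, was lost without control replicate 3 (-0.57) or mutant replicates 2 (-0.62) or 3 (-0.63). That of Opalin, at -0.64, was lost without control replicates 3 (-0.59) or 5 (-0.64) or mutant replicates 2 (-0.61), 3 (-0.59) or 4 (-0.63).

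Of 10 astrocyte markers (Aqp4 defining, Aldoc with the highest counts), 7 were below 0 and limma called 0, with 0 at an unadjusted p under 0.05, while edgeR called 0 and DESeq2 called 1, S100b. The sums were 248821, 192129, 137528 and 176145 in control replicates 1, 3, 4 and 5 and 153307, 163293, 145294 and 158766 in mutant replicates 2, 3, 4 and 5. For 10 microglial markers (Tmem119 defining, Csf1r with the highest counts), 8 were below 0 and limma called 0, with 0 at an unadjusted p under 0.05, while edgeR called 0 and DESeq2 called 1, Aif1. Their sums were 53410, 46577, 27225 and 32201 in controls and 30737, 33476, 28282 and 30454 in mutants. Both panels were highest in the library labelled control replicate 1. S100b went from -0.69 to -0.19 without that library and -0.12 with the replicate block, and was called lower without control replicate 4 (-1.02). Aif1 went from -0.75 to -0.35 and -0.39 in the same order, and was likewise called without control replicate 4 (-1.22). Among 4 markers of oligodendrocyte precursors (Pdgfra defining, Olig1 with the highest counts), 2 were below 0, and limma, edgeR and DESeq2 each called 0, with 0 at an unadjusted p under 0.05 from any of them. Those sums were 19816, 18786, 14130 and 16968 in controls and 16554, 15560, 14958 and 14316 in mutants.

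Endothelial cells were the panel with the most calls in the other direction. Of 10 markers (Cldn5 both defining and of highest count), 4 were below 0 and 3, Flt1, Kdr and Tek, were called higher. The sums were 210861, 342326, 240169 and 193968 in control replicates 1, 3, 4 and 5 and 310596, 307091, 310486 and 282852 in mutant replicates 2, 3, 4 and 5. Flt1, at a log2 fold change of 0.69, was not called with the replicate block (0.58), nor without the library labelled control replicate 1 (0.52), mutant replicate 4 (0.61) or mutant replicate 5 (0.64). Kdr, at 0.72, was not called with the block (0.48) or without the same libraries in turn (0.45, 0.68 and 0.64), whereas Tek was called in each of these. The part of these markers in the subunit values was not tested, and libraries without tagged ribosomes were not analysed here.

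**Figure D3:**
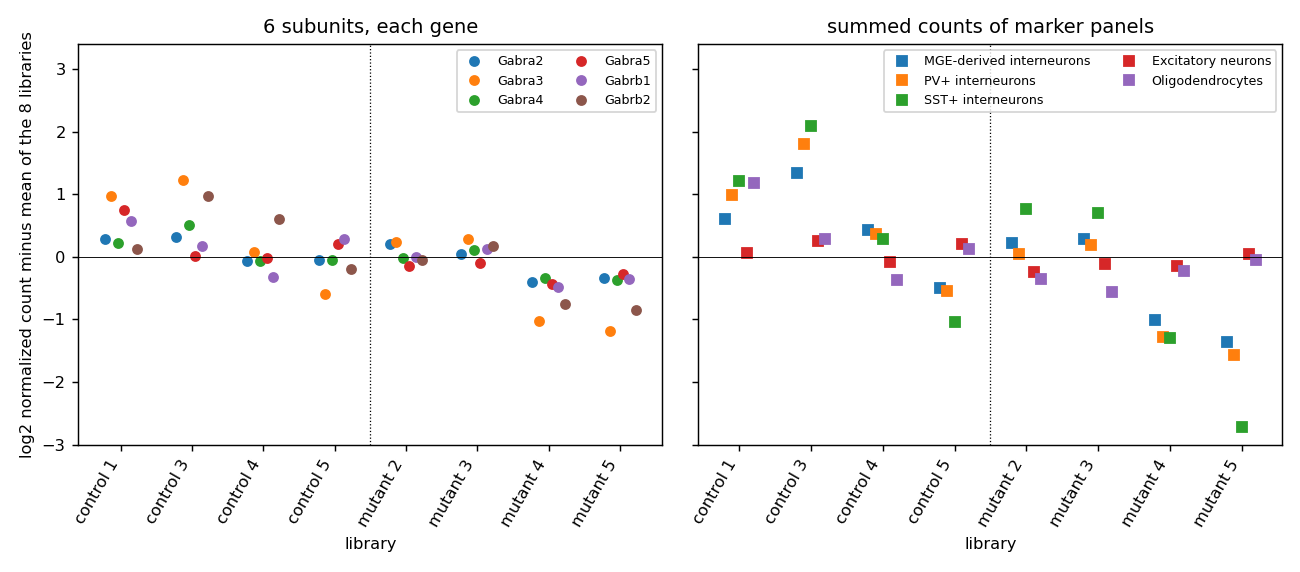
Log2 normalized count minus the mean over 8 libraries, for each of the 6 subunits (left) and for the summed counts of 5 marker panels (right), with controls left and mutants right of the dotted line. Gabra3 spans the widest range of the 6 subunits, and the SST+ panel the widest of the marker sums, both lowest in mutant replicate 5.

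Other genes of the GABA system were read from lists. Of 10 further GABA-A receptor subunits, 7 were tested, and 1 was called lower and 0 higher, with a median log2 fold change of -0.51. The called gene, Gabrd, encodes the delta subunit, which can assemble with alpha4. It had 39316, 48997, 25672 and 13607 normalized counts in control replicates 1, 3, 4 and 5 and 20332, 23183, 6783 and 5388 in mutant replicates 2, 3, 4 and 5. As for Gabra3, control replicate 5 lay below mutant replicates 2 and 3. The log2 fold change of Gabrd was -1.32 (standard error 0.53), and the call was lost in edgeR (-1.16) and without the library labelled control replicate 1 (-1.17), control replicate 3 (-1.06), mutant replicate 4 (-1.07) or mutant replicate 5 (-0.96).

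The inhibitory postsynaptic scaffold, which anchors receptors at synapses, was read from 11 genes. Limma called 0 of them, with 1 of 11 at an unadjusted p under 0.05, edgeR and DESeq2 also called 0, and the median was -0.04. Dag1 and Slitrk3, the 2 of highest count, had log2 fold changes of 0.28 and -0.43, and Slitrk3, an adhesion protein of inhibitory synapses, was called lower with the replicate block (-0.60). Without control replicate 3 or mutant replicate 4 Slitrk3 was at -0.24 and -0.28. Dag1 was at 0.02 without the library labelled control replicate 1 and at 0.0035 with the block, and at 0.15 without mutant replicate 3 and 0.47 without control replicate 3. Of 16 genes for receptor assembly and trafficking, 0 were called lower by limma and 1 higher. Their median log2 fold change was 0.02, with 8 below 0, and 2 had an unadjusted limma p under 0.05. The tests of edgeR and DESeq2 each called 2, Gabarap lower and Plcl1 higher. Every mutant lay below every control for 2 of the 16, against 2.17% of tested genes. Summed counts of the 16 ran from 193120 to 237554 in controls and from 152791 to 174749 in mutants. Gabarap, which encodes a protein of receptor trafficking, was at a log2 fold change of -0.77 in limma, -0.92 in edgeR and -0.93 in DESeq2. Limma called it lower without control replicates 4 (-1.05) or 5 (-1.0), and without the library labelled control replicate 1 it was at -0.51. The gene called higher was Plcl1, which encodes a protein that binds receptor beta subunits, at a log2 fold change of 0.83 (standard error 0.31). Without the library labelled control replicate 1 it was at 0.50 and not called. Clptm1, which holds subunits back in the endoplasmic reticulum, and the motor gene Kif5a had the highest counts, at -0.72 and -0.02 without a call. Clptm1 was called lower with the replicate block (-0.79) and without control replicate 5 (-0.96) or mutant replicate 3 (-0.93).

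Of 5 genes of the metabotropic GABA-B receptor and its KCTD partners, 1 was called lower, Kctd8, and 0 higher. Its log2 fold change of -0.75 (standard error 0.33) lost its call without the library labelled control replicate 1 (-0.57), control replicate 3 (-0.57), or mutant replicates 2 (-0.79), 4 (-0.61) or 5 (-0.71). Gabbr1 and Gabbr2, the receptor's own subunits and the 2 of highest count, were at -0.53 and -0.17. Gabbr2 was at -0.41 without the library labelled control replicate 1 and -0.04 without control replicate 4, with no call. Gabbr1 fell short of the 1.5-fold needed for a call, and was called lower with the replicate block (-0.63) and without control replicate 5 (-0.62), mutant replicate 2 (-0.59) or mutant replicate 3 (-0.63).

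The 2 chloride transporters set the direction of current through GABA-A receptors. Slc12a2, the importer, had 1571, 2834, 2933 and 2840 normalized counts in control replicates 1, 3, 4 and 5 and 3603, 3192, 4309 and 3938 in mutant replicates 2, 3, 4 and 5. Every mutant lay above every control, and the library labelled control replicate 1 was the lowest of all. It was called higher at a log2 fold change of 0.60 (standard error 0.23), but not by edgeR (0.58) or DESeq2 (0.58), with the replicate block (0.40), or without the library labelled control replicate 1 (0.38), mutant replicate 4 (0.53) or mutant replicate 5 (0.57). Slc12a5, the exporter, overlapped at -0.43 and was not called. It was called lower with the block (-0.79) and without the library labelled control replicate 1 (-0.73), and was at -0.18 without control replicate 3 and -0.27 without control replicate 4.

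Of 5 genes for GABA synthesis, packaging and reuptake, 5 were below 0, and the 2 called lower were Gad1 and Gad2, described above. Slc32a1, which loads GABA into vesicles, was at a log2 fold change of -1.31 without a call. It was called lower with the replicate block (-1.66) and without control replicate 5 (-1.68), mutant replicate 2 (-1.67) or mutant replicate 3 (-1.74), and was at -0.82 without mutant replicate 5.

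**Figure D4:**
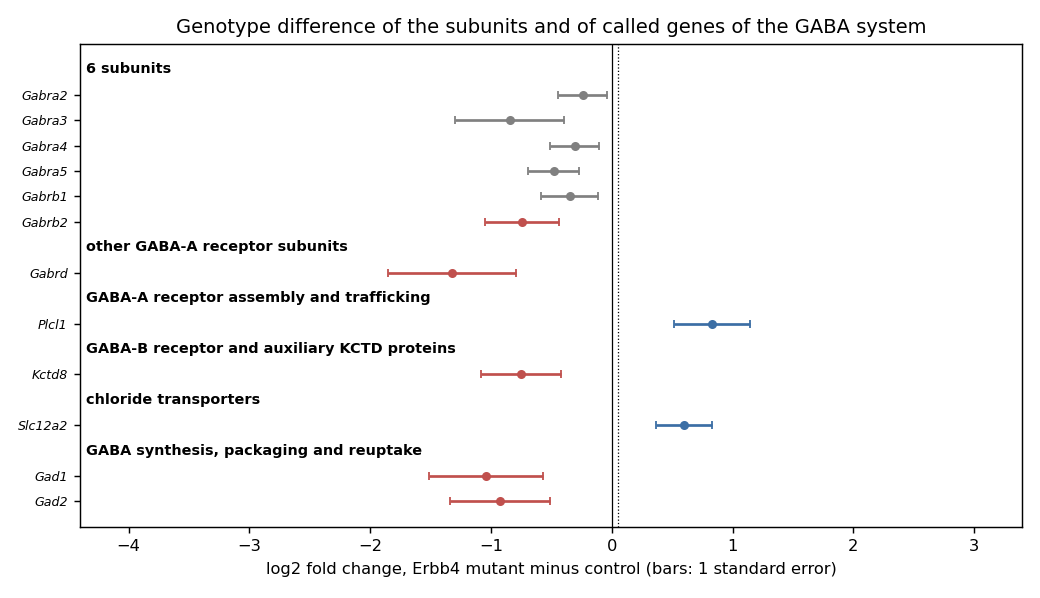
Log2 fold change of Erbb4 mutants against controls (horizontal axis, bars 1 standard error) for the 6 subunits and the called genes of the lists, red for called lower, blue for called higher and grey for not called. The solid line marks 0 and the dotted line the median of all tested genes, 0.06; all 6 subunits lie left of both.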

How the data were processed

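The deposited signal consists of normalized counts for 8 libraries. Per the methods of the study, reads were aligned with STAR to mm10, counted on constitutive regions of Fast DB genes and divided by DESeq2 size factors. Dividing by the value of 1 read gave whole reads, within 0.01 of a read, for 100% of values above 0. Genes were tested with limma 3.58.1 (lmFit, eBayes with trend; R 4.3.3) on log2(normalized count + 1), with Benjamini-Hochberg adjustment over the 31171 genes tested. As alternatives on the recovered reads, edgeR 4.0.16 called 2279 genes and DESeq2 1.42.0 called 2834, against 2229 from limma. Each was tested on simulated data. Lengths came from GENCODE M21, and RefSeq promoter windows matched 6 of 6 subunits.

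Deviations from the genotype means correlated at 0.254, 0.211 and 0.238 between libraries numbered 3, 4 and 5, over the 0.1 in each pair that was taken as pairing. Differently numbered libraries reached like values, 0.245 for control replicate 3 with mutant replicate 2, 0.206 for control replicate 4 with mutant replicate 5 and 0.204 for control replicate 5 with mutant replicate 4. The other 10 such pairs ran from -0.315 to 0.059. Control replicate 3 was negative with mutant replicates 4 and 5, and control replicates 4 and 5 with mutant replicates 2 and 3. The labels do not say what a number marks, nor which sequencing batch a library belongs to, so values within batches could not be given.

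Named genes are the 6 subunits, label checks, the called genes and the 2 of highest count in each list, the nearest profiles, and the defining marker and that of highest count in each panel. Called markers of panels, and those called by edgeR or DESeq2 alone, were named after their values were seen. Some items that these rules name are not reported here. The members and lists were chosen with earlier results of these data known.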

Additional observations from a re-analysis of the deposited data

Results flagged for a closer look

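Among 56 groups of 4 libraries, 1 held a library far from the rest, and chance gives about 1 in 20. Mutant replicate 5 had summed endothelial markers of 282852 normalized counts, while the remaining mutants lay between 307091 and 310596, a gap of 0.874 of the whole range. No value of the 6 subunits stood apart by this measure. The 56 groups did not take in every gene named above. Slc12a2 was not among them, though the library labelled control replicate 1, at 1571, lay far below the other controls, at 2834 to 2933.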

How the results depend on the processing

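All 6 subunits had a log2 fold change below 0 under each of the 15 alternatives that can alter a fold change, 90 values in all, from -0.99 to -0.55 for Gabrb2, -1.19 to -0.58 for Gabra3 and -0.35 to -0.15 for Gabra2. The number of subunits called, 1 of 6, was 0 under limma without trend and at an adjusted p under 0.05, and 2, Gabra3 and Gabrb2, with library weights and with the replicate block. Leaving out 1 library gave 0 to 2. Over all genes, 2229 calls became 3630 with library weights, 14 at an adjusted p under 0.05 and 3164 with the replicate block. Leaving out 1 library gave 1194 (without mutant replicate 4) to 3767 (without control replicate 5), and 1229 without mutant replicate 5. Calls split into 988 lower and 1241 higher in limma, and into 1573 and 1261 in DESeq2. Of genes never called, Kif5a turned above 0 with quantile normalization (0.15) and without control replicates 4 (0.15) or 5 (0.31) or mutant replicates 2 (0.02) or 3 (0.15); its lowest value was -0.30, without the library labelled control replicate 1. Slc17a7 did so with quantile normalization (0.16), and Cldn5 with quantile normalization (0.16) and without control replicate 3 (0.13) or mutant replicate 5 (0.0038). Limma without trend ended the calls of Gabrd, Plcl1, Kctd8, Slc12a2, Gad1, Gad2, Pvalb, Syt2, Chodl, Mog, Mag, Opalin and Kdr. Library weights ended those of Slc12a2, Neurod6, Mog, Mag and Opalin, and with them, among others, Slitrk3, Clptm1, Gabbr1, Slc12a5, Slc32a1 and Lhx6 were called lower. A pseudocount of 0.1 or no filter on low values ended the calls of Gad1 and Gad2, a mean of at least 100 that of Gad1, quantile normalization that of Mag and edgeR that of Syt2. No named gene was called at an adjusted p under 0.05 in limma. The replicate block changed no call of a named gene other than those given beside it. The causes were not tested. The genotype difference in alpha share, 1.765 percentage points, ran from 0.393 (per kb of coding length) to 3.493 (replicate block), and that in log2 summed level, -0.53, from -0.64 to -0.43, each within 1 SD of controls of its value here. The alpha share itself changed with the length used. The subunit values rest on 1262 to 11834 reads each.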
